A study of Homo sapiens with 18 samples.

Results

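UPF1069 and veliparib were compared directly in LNCaP, a human prostate cancer cell line that responds to androgen. The comparison holds 4 libraries of the 18 in the series: 2 from cells given 10 uM UPF1069 and 2 from cells given 10 uM veliparib, both for 24 h. Cells of all groups grew in RPMI 1640 medium with 10% serum, and 2 libraries of vehicle (DMSO) cells from the same experiment gave the reference level. Total RNA was sequenced, and the design text calls the 2 libraries of a group biological duplicates. Every gene with a mean of at least 1 CPM (reads scaled to library size) over the inhibitor table entered, which was 13337 of 21391 features. Near that limit, 160 features had a mean from 1 to under 1.1 CPM and 175 from 0.9 to under 1. LNCaP is a single established line, and no targeted transcript was available to check which compound a culture received.

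PARP1 and PARP2 are nuclear enzymes that read DNA breaks and attach chains of ADP-ribose, made from NAD, to themselves and to nearby proteins. Veliparib inhibits both enzymes, and UPF1069 is marketed as selective for PARP2. Among the responses that a DNA-damage signal can start is the p53 pathway, in which the p53 protein switches on genes for cell cycle arrest, apoptosis, repair and its own inhibitor MDM2. The protein CDKN1A (p21), a p53 target, blocks cyclin-dependent kinases. When these kinases are blocked, the DREAM complex keeps promoters of genes for mitosis silent through a short element called CHR, often near CCAAT boxes that NF-Y binds.

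Recovered depth was 26.4 to 34.3 M reads per library, so that 3 reads made 0.0882 to 0.113 CPM. All 12 luminal prostate markers had a mean of at least 1 CPM, and their summed level was 5694 to 6050 CPM over the libraries. Of the markers of other cells, 1 of 6 basal (DST), 2 of 8 neuroendocrine (SYP and DLL3), 3 of 8 fibroblast and smooth muscle, 0 of 8 leukocyte and 1 of 6 endothelial markers reached a mean of 1 CPM. The basal sum was 14.9 to 16.1 CPM with UPF1069 and 25.1 to 27.5 with veliparib, the neuroendocrine sum 14.5 to 15.7 and 12.6 to 14.1, and the fibroblast and smooth muscle sum 23.2 to 23.2 and 17.3 to 18.9. The leukocyte sum was 0.207 to 0.563 CPM. The part of these low sums in the results was not tested. The veliparib libraries stood apart in spread: the mean chi-square per gene between replicates was 6.38 for veliparib, 1.31 for UPF1069 and 1.66 for DMSO, where counting noise alone gives a value near 1.

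The difference between the compounds was wide in number of genes and small in size for most. Of 13337 genes, 6781 (50.8%) had an adjusted p below 0.05 in limma's trend test on log2(CPM + 1) with Benjamini-Hochberg adjustment. Of these, 3457 (25.9%) were higher and 3324 (24.9%) lower with UPF1069. The median absolute difference of the genes that passed was 0.28 on the log2 scale, and 2874 of them differed by under 0.25. At least 2-fold, taken as a difference of at least 1 on the log2(CPM + 1) scale, 34 genes (0.255%) were higher and 14 (0.105%) lower. The 95% interval of the difference lay within 0.25 of 0 for 4240 genes (31.8%), which were alike within that bound in this fit, without correction for GC content. With edgeR's quasi-likelihood test on the recovered reads, 50.9% passed, 25.5% higher and 25.4% lower. Fewer genes passed with DESeq2 (5424), with a variance weight per group (5969) and in a fit of the 4 compared libraries alone (5962). The main fit shares 1 variance per gene over all groups, although the veliparib libraries had the wider spread. Its standard errors and adjusted p-values can therefore be too small for this contrast, and its intervals too narrow. All other differences in the text are on the same log2(CPM + 1) scale, UPF1069 minus veliparib, with n = 2 libraries per compound. A test of a single gene by exact permutation of 2 against 2 libraries cannot go below p = 0.333, so every adjusted p comes from the fit over all genes.

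**Figure D1:**
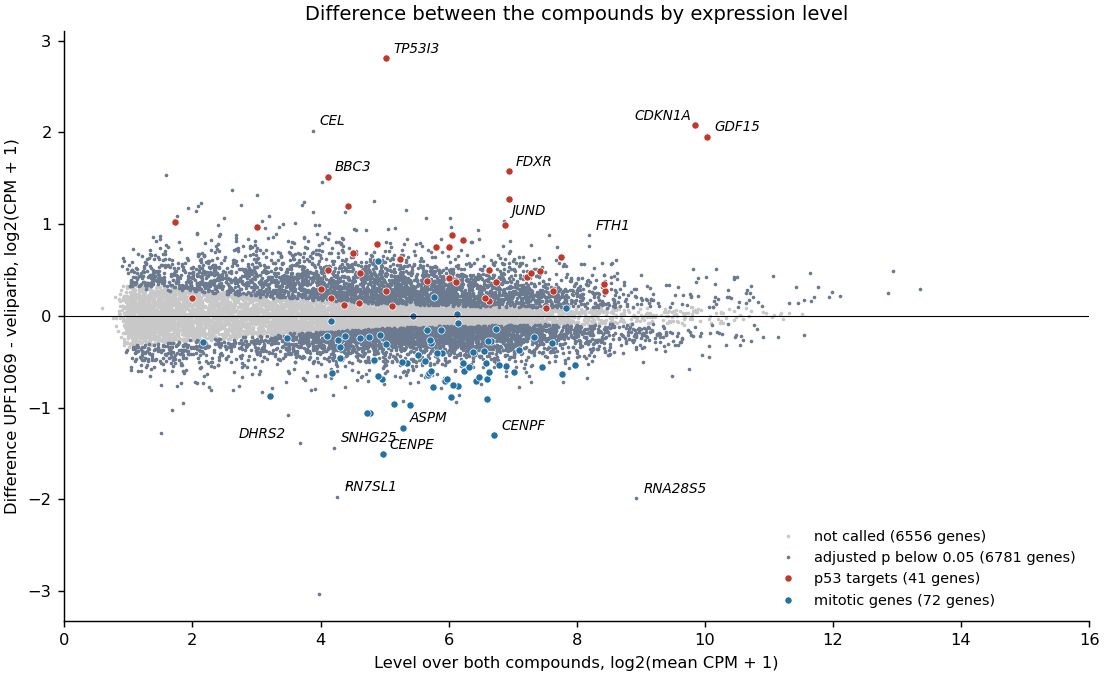
Difference UPF1069 minus veliparib, on the log2(CPM + 1) scale, of the 13337 genes against their level, the log2 of the mean CPM of both compounds + 1. Grey points did not pass and blue-grey points passed (6781 genes). The 41 p53 targets (red) lie above 0 and most of the 72 mitotic genes (blue) below it, and TP53I3 is the highest point at 2.81.

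Among the 34 genes that were at least 2-fold higher with UPF1069, the veliparib mean was nearer to the DMSO mean than the UPF1069 mean in 28. Among the 14 that were at least 2-fold lower, that held for 6. Among the genes with a difference of at least 0.5, it held for 197 of 564 higher and 114 of 222 lower genes. Most of the largest increases thus separated UPF1069 from both DMSO and veliparib, whereas in most of the higher genes past 0.5 veliparib lay farther from DMSO.

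GC content moved with the difference over the whole transcriptome. Across 13075 genes with a known transcript, which are not independent replicates, Spearman's rho between GC content and the difference was 0.645, and between length and the difference -0.240. Against DMSO the rho with GC content was 0.110 for UPF1069 and -0.698 for veliparib. The 2 veliparib libraries also differed from each other along GC content, with a rho of -0.515 for replicate 1 minus replicate 2, against 0.0276 for UPF1069. Whether the GC trend came from the compound or from the preparation of the libraries was not tested, and 2 libraries per compound cannot tell these apart. In the quintile of genes with the lowest GC content the median difference was -0.17 and 52.3% were lower with UPF1069, and in the quintile with the highest it was 0.28 and 70.5% were higher. After each library was corrected for a smooth trend in GC content and length, 5157 of 13075 genes (39.4%) passed, 2864 (21.9%) higher and 2293 (17.5%) lower. Of 6689 genes that had passed before and had a GC value, 3460 passed in the same direction and 148 in the opposite one. The corrected value, called GC-corrected from here on, is therefore printed beside the counts of the gene groups. Those counts are to be read against the shares over all genes, 25.9% higher and 24.9% lower, or 21.9% and 17.5% GC-corrected. Medians, counts and positions relative to DMSO are not corrected anywhere in the text, although veliparib minus DMSO moved with GC content.

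**Figure D2:**
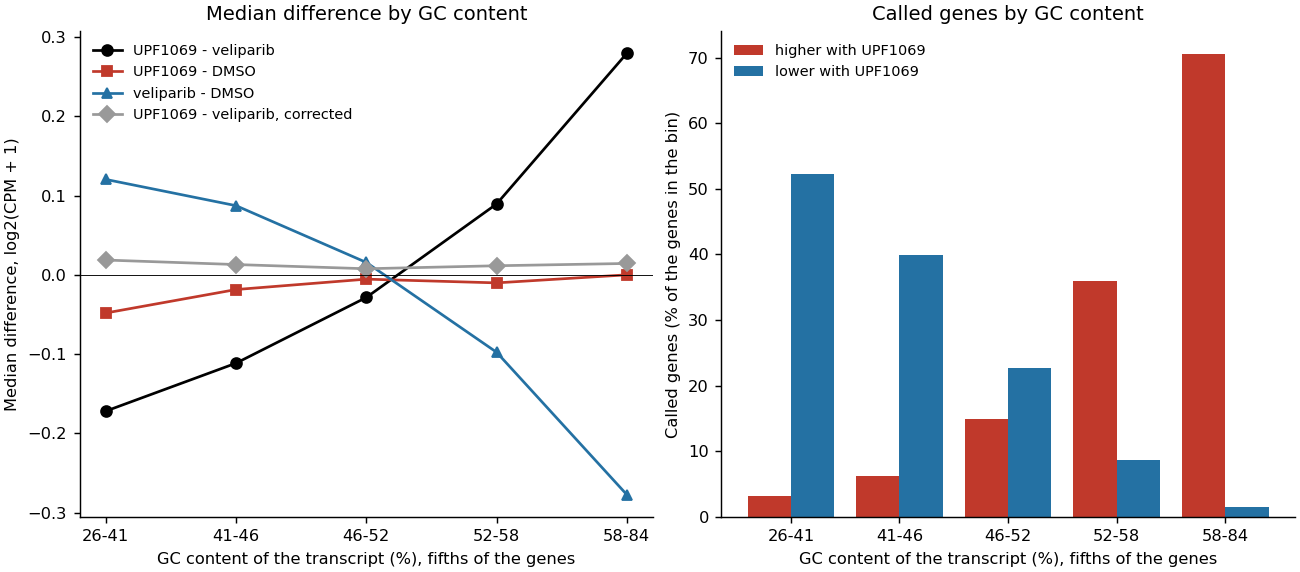
Left, the median difference on the log2(CPM + 1) scale in quintiles of the genes by GC content of the transcript (%), for UPF1069 minus veliparib (black), each compound minus DMSO (red and blue) and UPF1069 minus veliparib after correction (grey). Right, the percentage of genes in each quintile that passed as higher (red) or lower (blue) with UPF1069: the black line runs from -0.17 to 0.28, and the share of higher genes from 3.10% to 70.5%.

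The p53 target genes were higher with UPF1069 than with veliparib as a group. Of 41 tested targets in 3 lists, 36 were higher and 0 lower, with a median difference of 0.49 beside -0.01 over all genes tested. The lists were drawn up with earlier results on these samples known, so their direction is not independent evidence. In all 41 both UPF1069 libraries lay above both veliparib libraries, whereas 36.1% of all genes did. Both UPF1069 libraries also lay above both DMSO libraries in 40 of 41, against 28.7% of all genes, and the veliparib mean was nearer to DMSO in 39. GC-corrected, 39 were higher and 0 lower, with a median of 0.55. The medians against DMSO were 0.63 for UPF1069 and 0.15 for veliparib.

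All 14 targets for arrest and feedback were higher with UPF1069, with a median of 0.63 (14 and 0.65 GC-corrected). CDKN1A, the kinase inhibitor p21, had 309.7 and 311 CPM in DMSO, 1492 and 1497 with UPF1069, and 350.3 and 356 with veliparib. The UPF1069 libraries were far above the other 4, which were close together. The difference was 2.08 (SE 0.034, adjusted p = 1.73e-21 by limma), a 4.23-fold ratio of mean CPM. GDF15, a secreted stress cytokine, had 594 and 598 CPM in DMSO, 1646 and 1682 with UPF1069, and 421 and 437 with veliparib. Its difference of 1.95 (SE 0.036) thus had DMSO between the compounds, with veliparib the lowest. BTG2, an antiproliferative transcription cofactor, had 61.4 and 64.5 CPM in DMSO, 172 and 173 with UPF1069, and 73.1 and 67.9 with veliparib (difference 1.28, GC-corrected 1.27).

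PLK3, a stress-responsive kinase, had 4.77 and 4.38 CPM in DMSO, 9.39 and 9.98 with UPF1069, and 4.54 and 4.38 with veliparib. Veliparib and DMSO overlapped, and the difference between the compounds was 0.97 (95% interval 0.77 to 1.17). MDM2, the ubiquitin ligase that degrades p53, had 132 and 126 CPM in DMSO, 264 and 264 with UPF1069, and 164 and 172 with veliparib. Both compounds lay above DMSO for MDM2, and UPF1069 lay above veliparib by 0.65 (SE 0.040, adjusted p = 3.25e-11 by limma) and by 0.87 GC-corrected.

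Of 13 targets for death receptors and apoptosis, 10 were higher with UPF1069 and 0 lower, with a median of 0.50 (12, 0 and 0.39 GC-corrected). TP53I3, a quinone oxidoreductase also called PIG3, had 7.30 and 7.47 CPM in DMSO, 56.1 and 56.1 with UPF1069, and 6.79 and 7.51 with veliparib. The veliparib and DMSO libraries overlapped, and the difference of 2.81 (SE 0.073, adjusted p = 8.68e-18 by limma) was the highest of all genes tested, a 7.84-fold ratio. BBC3 encodes PUMA, a BH3-only protein that starts mitochondrial apoptosis, and had 10.5 and 10.6 CPM in DMSO, 25.5 and 23.7 with UPF1069, and 8.54 and 7.36 with veliparib. Its difference of 1.52 was 1.01 GC-corrected. PHLDA3, an inhibitor of AKT signalling, had 152 and 160.1 CPM with UPF1069 and 76.7 and 79.6 with veliparib (difference 0.99). PIDD1, which builds a caspase-activating complex, had 37.5 and 35.0 CPM with UPF1069 and 19.5 and 21.7 with veliparib (0.79, and 0.39 GC-corrected).

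The 5 p53 targets that did not pass were looked up after their values were seen. They were the death receptors TNFRSF10A (0.11, 95% interval -0.02 to 0.24) and TNFRSF10B (0.08, -0.00 to 0.16), the BH3-only gene PMAIP1 (0.12, -0.03 to 0.27), the kinase subunit PRKAB1 (0.14, 0.02 to 0.27) and TRIM22 (0.19, -0.05 to 0.43). The upper ends of all 5 intervals lay below the differences of PHLDA3, BBC3 and TP53I3. GC-corrected, PMAIP1 (0.30), TNFRSF10B (0.09) and TRIM22 (0.32) passed. The apoptosis genes of the p53 lists therefore spanned differences from 0.08 to 2.81.

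Among 14 targets for repair and metabolism, 12 were higher and 0 lower, with a median of 0.40 (13, 0 and 0.45 GC-corrected). FDXR, the mitochondrial ferredoxin reductase, had 65.1 and 63.7 CPM in DMSO, 183 and 182 with UPF1069, and 60.1 and 61.2 with veliparib (difference 1.57, SE 0.042). SERPINB5, or maspin, had 9.09 and 9.85 CPM in DMSO, 28.8 and 29.1 with UPF1069, and 12.5 and 11.6 with veliparib (1.20). Veliparib lay above DMSO for SERPINB5 and below it for FDXR, in both cases by much less than UPF1069. DDB2, a sensor of ultraviolet damage in nucleotide excision repair, had 84.3 and 85.8 CPM with UPF1069 and 44.5 and 46.9 with veliparib (0.88). APOBEC3H, a cytidine deaminase with close paralogs, had 0.380 and 0.618 CPM in DMSO, 3.72 and 3.13 with UPF1069, and 1.11 and 1.25 with veliparib (1.02). APOBEC3H is also in the list of APOBEC3 genes, and reads shared with paralogs could not be checked.

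**Figure D3:**
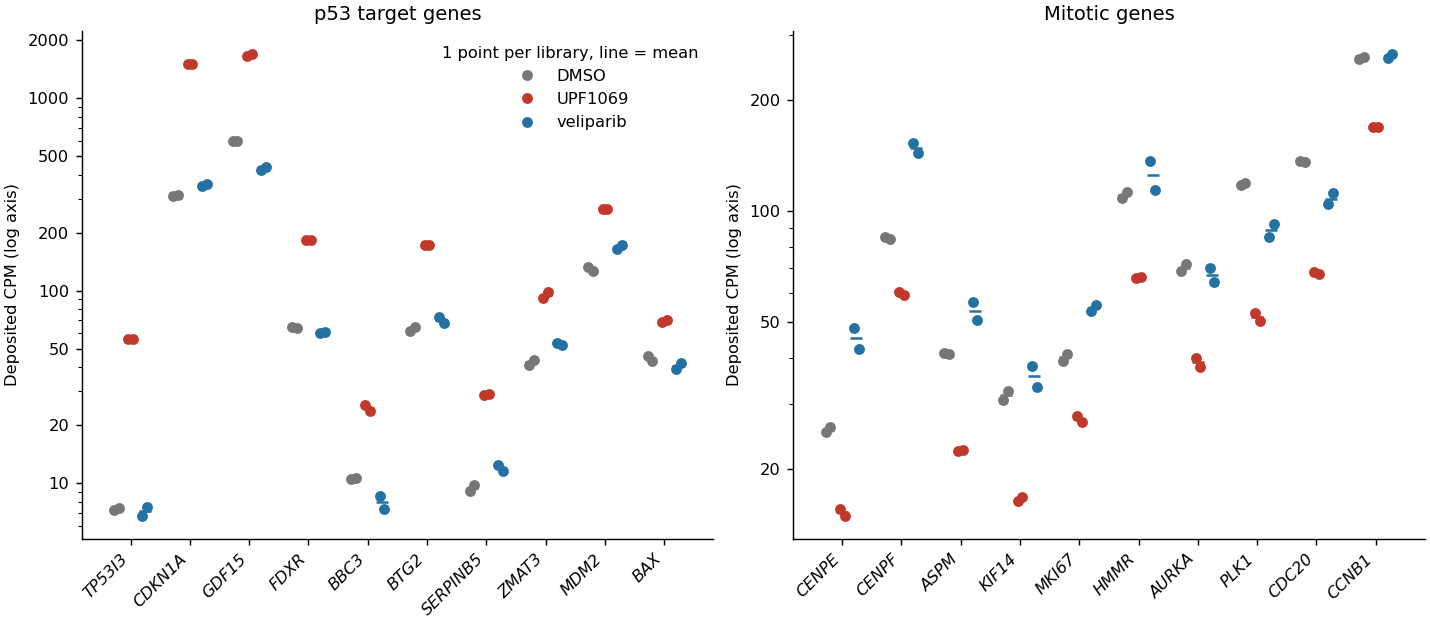
Deposited CPM (log axis) of 10 p53 targets (left) and 10 mitotic genes (right) in the 2 DMSO, 2 UPF1069 and 2 veliparib libraries; each point is a library and each short line the mean of the group. CDKN1A stands at 1492 and 1497 CPM with UPF1069 against 350.3 and 356 with veliparib, and CENPE at 15.6 and 14.96 against 48.3 and 42.4. ZMAT3, CDC20 and CCNB1 were added after values were seen.

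Genes of mitosis were lower with UPF1069 than with veliparib. Of 72 tested genes in 4 lists, 64 were lower and 2 higher, with a median of -0.51. In 66 both UPF1069 libraries lay below both veliparib libraries, which held for 36.4% of all genes. Both UPF1069 libraries were below both DMSO libraries in 69 of 72, against 37.8% of all genes. Both veliparib libraries were below DMSO in 22 of 72 and above it in 24, against 35.3% and 30.9% of all genes. The medians against DMSO were -0.50 for UPF1069 and 0.02 for veliparib, neither corrected for GC content. The median GC content of the mitotic genes was 42.9%. In the quintile of all genes from 41.1% to 45.8%, the medians against DMSO were -0.019 for UPF1069 and 0.087 for veliparib. GC-corrected, 61 were lower and 2 higher, with a median of -0.41. These lists too were drawn up with earlier results known. Bulk RNA cannot tell fewer cells in mitosis from less of these transcripts per cell.

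Promoters of the mitotic genes carried the CHR letters far more often than promoters at large. The window ran from 250 bases before to 50 bases after the RefSeq start (GRCh38.p14), and CHR was searched as TTTGAA or TTCGAA on both strands. A match stood in 45 of 62 promoters of mitotic genes (72.6%), in 1 of 34 of p53 targets (2.94%), in 2 of 29 of replication genes (6.90%) and in 1095 of 10152 of all genes tested (10.8%). CCAAT, on either strand, stood in 71.0% of the mitotic promoters and 37.3% of all. With TTTGAA alone, the shares were 67.7% and 9.32%. The 45 mitotic genes with a CHR match had a median difference of -0.56, and the 17 without one -0.39, so genes of both kinds were lower. Shown are the 120 bases before the start of 3 genes the results turn on and of CDC20, chosen after its values were seen, 5′ to 3′ on the gene's strand. Capitals mark CHR letters and CCAAT or its reverse complement ATTGG, which share bases in MKI67 and HMMR.
PLK1: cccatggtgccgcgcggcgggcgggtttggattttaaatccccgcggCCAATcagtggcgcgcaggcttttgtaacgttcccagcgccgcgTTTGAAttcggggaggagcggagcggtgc
MKI67: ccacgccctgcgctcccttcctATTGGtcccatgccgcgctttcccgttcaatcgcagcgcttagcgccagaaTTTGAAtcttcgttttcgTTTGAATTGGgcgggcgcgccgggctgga
HMMR: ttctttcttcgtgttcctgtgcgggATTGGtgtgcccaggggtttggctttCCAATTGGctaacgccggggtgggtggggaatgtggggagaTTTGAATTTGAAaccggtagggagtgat
CDC20: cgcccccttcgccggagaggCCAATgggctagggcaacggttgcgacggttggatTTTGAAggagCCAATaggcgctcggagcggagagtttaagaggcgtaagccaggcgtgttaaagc
These windows are chr16:23678769-23678888 (plus strand), chr10:128126424-128126543 (minus), chr5:163460512-163460631 (plus) and chr1:43358861-43358980 (plus). The CHR letters start 29 bases before the start of PLK1, 47 and 29 before MKI67, 28 and 22 before HMMR, and 65 before CDC20. A match of letters is a description and no measure of binding.

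Among 15 kinases and cyclins of mitotic entry, 11 were lower and 1 higher, with a median of -0.50 (12 and 2 GC-corrected, and 2 higher without veliparib replicate 1). PLK1, the polo-like kinase with the promoter shown, had 118 and 119 CPM in DMSO, 53.1 and 50.4 with UPF1069, and 85.1 and 92.2 with veliparib. Both compounds lay below DMSO, UPF1069 by more, and the difference was -0.77 (SE 0.048, adjusted p = 4.18e-11 by limma). AURKA, the spindle pole kinase Aurora A, had 68.8 and 71.9 CPM in DMSO, 40.1 and 37.8 with UPF1069, and 70.0 and 64.4 with veliparib (-0.77). BUB1 and TTK, kinases of the spindle checkpoint, differed by -0.71 and -0.68. PKMYT1, which inhibits CDK1, was the gene in the opposite direction, with 34.8 and 35.1 CPM in DMSO, 34.9 and 34.7 with UPF1069, and 22.4 and 22.9 with veliparib. Its difference of 0.60 was 0.20 GC-corrected, and UPF1069 and DMSO overlapped.

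Of 19 kinetochore and checkpoint genes, 17 were lower and 0 higher, with a median of -0.34, and 12 were lower GC-corrected. Without veliparib replicate 2, 1 was higher. CENPE, the kinetochore motor, had 25.2 and 26.0 CPM in DMSO, 15.6 and 14.96 with UPF1069, and 48.3 and 42.4 with veliparib. The compounds lay on opposite sides of DMSO, and the difference of -1.51 (SE 0.070, adjusted p = 5.31e-13 by limma) was -1.26 GC-corrected. CENPF, an outer kinetochore protein of late G2, had 85.1 and 83.9 CPM in DMSO, 60.3 and 59.1 with UPF1069, and 153 and 144 with veliparib (-1.30, and -1.08 GC-corrected). SGOL2, a protector of cohesin, had 15.7 and 16.5 CPM with UPF1069 and 39.7 and 30.0 with veliparib (-1.06). NDC80, the core microtubule attachment factor, had 38.2 and 39.5 CPM with UPF1069 and 62.7 and 59.6 with veliparib (-0.64). For these 4 genes the veliparib libraries differed from each other by more than the UPF1069 libraries did.

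The spindle and kinesin genes were lower in 20 of 21 cases and higher in 0, with a median of -0.60, and in 21 GC-corrected. ASPM, a spindle pole protein, had 41.4 and 41.1 CPM in DMSO, 22.4 and 22.5 with UPF1069, and 56.7 and 50.7 with veliparib (-1.22, SE 0.059). The motor KIF14 had 30.8 and 32.5 CPM in DMSO, 16.4 and 16.8 with UPF1069, and 38.1 and 33.4 with veliparib (-1.06). HMMR, a spindle assembly factor whose promoter is shown, had 109 and 113 CPM in DMSO, 66.0 and 66.2 with UPF1069, and 137 and 114 with veliparib (-0.91). DMSO lay between the compounds for ASPM, KIF14 and HMMR, close to the lower veliparib library in the last. KIF20A, a motor of the central spindle, had 86.5 and 90.5 CPM in DMSO, 45.5 and 44.8 with UPF1069, and 81.7 and 87.2 with veliparib (-0.89), with veliparib and DMSO overlapping. KIF20B and KIF18A differed by -0.96 and -0.87.

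Among 17 genes of anaphase and cytokinesis, 16 were lower and 1 higher, with a median of -0.51 (16 and 0 GC-corrected). MKI67, the proliferation antigen Ki-67, had 39.3 and 41.0 CPM in DMSO, 27.9 and 26.8 with UPF1069, and 53.6 and 55.7 with veliparib. It was another gene with DMSO in the middle, and differed by -0.97 (SE 0.056, adjusted p = 1.33e-11 by limma) between the compounds. ANLN, a cleavage furrow scaffold, and the condensin subunits SMC4 and NCAPG differed by -0.71, -0.69 and -0.69. SMC4 had 133 and 105 CPM in the veliparib libraries, a gap wider than in the UPF1069 libraries (75.7 and 70.4). FZR1, the late activator of the anaphase-promoting complex, was higher by 0.20, but this ended GC-corrected (-0.10, adjusted p = 0.053 by limma).

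The 6 mitotic genes that did not pass were also looked up after values were seen: CDK1, FOXM1, BORA, CENPM, SPC24 and KIF18B. CDK1, the mitotic kinase itself, differed by 0.09 (95% interval -0.03 to 0.21), and FOXM1, a transcription factor of G2 genes, by -0.08 (-0.17 to 0.02). The intervals of CDK1, FOXM1, CENPM, SPC24 and KIF18B held no difference as low as -0.25.

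Replication genes gave as many higher as lower calls. Of 33 replication genes 7 were higher and 7 lower, beside 25.9% and 24.9% of all genes, with a median of 0.01. GC-corrected, 8 were higher and 9 lower, beside 21.9% and 17.5% of all genes. The lower count was 4 without UPF1069 replicate 1, and the higher count 11 without veliparib replicate 2. CDT1, which licenses origins, had 62.1 and 61.1 CPM in DMSO, 90.3 and 80.8 with UPF1069, and 41.1 and 45.4 with veliparib (0.97, and 0.61 GC-corrected). The helicase subunit MCM6 went the other way, with 104 and 105 CPM with UPF1069 and 137 and 135 with veliparib (-0.38). Of 16 cyclins, kinases and E2F factors of G1 and S, 6 were higher and 4 lower (median 0.07; 7 and 2 GC-corrected), with E2F1 at 0.41 and E2F8 at -0.45. The corrected value of E2F1 was 0.12.

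Of 7 CDK inhibitors, 4 were higher and 1 lower, and the counts were the same GC-corrected, but not for the same genes. Beside CDKN1A, the higher genes before correction were CDKN2B (0.41), CDKN2A (0.39, with 33.0 and 33.1 CPM against 26.8 and 23.4) and CDKN1C (0.33). GC-corrected, CDKN1C was at 0.01 and did not pass (adjusted p = 0.94 by limma), and another inhibitor took its place in the count. CDKN2B and CDKN1C also did not pass with DESeq2. CDKN2A differed by 0.15 GC-corrected. CDKN2C, an inhibitor of CDK4 and CDK6, had 47.3 and 49.6 CPM in DMSO, 31.8 and 29.9 with UPF1069, and 38.4 and 35.8 with veliparib (-0.26). No other inhibitor came near the size of CDKN1A.

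Replication-dependent histone genes, whose transcripts peak in S phase, were lower with UPF1069 in 12 of 16 cases and higher in 1, with a median of -0.37, and in 14 GC-corrected. HIST1H2BJ had 14.97 and 14.4 CPM in DMSO, 7.06 and 5.42 with UPF1069, and 14.8 and 13.6 with veliparib (-1.08). HIST1H2BC differed by -0.68. HIST3H2A was the higher gene (0.54), with 30.8 and 29.6 CPM in DMSO, 27.8 and 28.8 with UPF1069, and 20.04 and 18.2 with veliparib. Histone genes are near-identical copies, so the counts of single members are uncertain. Of 7 structural RNAs without a poly(A) tail, 3 were lower and 1 higher with UPF1069 (2 higher without veliparib replicate 2). RNA28S5, the 28S ribosomal RNA, had 118 and 115 CPM in DMSO, 171 and 221 with UPF1069, and 743 and 805 with veliparib (-1.99). The signal recognition particle RNA RN7SL1 had 6.65 and 6.92 CPM with UPF1069 and 27.9 and 31.1 with veliparib (-1.97). Structural RNAs made 0.0788 and 0.0853% of the veliparib libraries, 0.0192 and 0.0247% of the UPF1069 libraries, and 0.0130 and 0.0128% of the DMSO libraries. The part of these RNAs in the histone values was not tested.

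Immediate early genes, which are switched on within minutes of a signal, were higher with UPF1069 in 10 of 11 cases and lower in 0, with a median of 0.56, and in 10 GC-corrected (median 0.40). For this group veliparib lay farther from DMSO: both veliparib libraries were below both DMSO libraries in 10 of 11 genes (35.3% of all genes), and both UPF1069 libraries above in 8 (28.7% of all genes). The list had a median GC content of 56.7%, and veliparib minus DMSO fell with GC content, as given above. JUND, an AP-1 subunit, had 119 and 119 CPM in DMSO, 154 and 158 with UPF1069, and 80.4 and 71.2 with veliparib. Its difference of 1.04 (SE 0.047) was 0.53 GC-corrected, and 69.7% of its transcript is G or C. JUNB (0.75, and 0.40 GC-corrected), the reprogramming factor KLF4 (0.83) and ZFP36, which destabilises mRNAs (0.76), were the next largest.

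Of 13 genes of the BCL2 family, 8 were higher and 0 lower, with a median of 0.35 (9 GC-corrected). BBC3, BAX, BCL2L1 and PMAIP1 are p53 targets counted above, of which PMAIP1 did not pass. BAX, an effector of mitochondrial permeabilisation, had 45.8 and 43.2 CPM in DMSO, 68.4 and 70.2 with UPF1069, and 39.2 and 42.2 with veliparib (0.75). BAD, a BH3-only protein, had 30.5 and 31.5 CPM in DMSO, 33.2 and 33.0 with UPF1069, and 22.5 and 22.4 with veliparib (0.54, and 0.16 GC-corrected). BAX rose above DMSO with UPF1069, whereas BAD fell below it with veliparib. BMF, another BH3-only protein, differed by 0.50.

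The targets of the compounds and most of their family differed by small amounts. PARP1 had 537 and 536 CPM in DMSO, 495 and 483 with UPF1069, and 573 and 597 with veliparib (-0.26, SE 0.036, adjusted p = 3.44e-06 by limma). PARP2 had 42.5 and 42.2 CPM in DMSO, 35.8 and 36.5 with UPF1069, and 39.4 and 41.7 with veliparib (-0.16, adjusted p = 0.0139, and GC-corrected -0.09, adjusted p = 0.14, both by limma). Of 15 family members 2 were higher and 6 lower, beside 25.9% and 24.9% of all genes. GC-corrected, 4 were higher and 1, which was PARP1, lower. Without UPF1069 replicate 1 the lower count was 2, and without veliparib replicate 1 the higher count was 4. PARP10 was the highest (0.44), and was at 0.02 GC-corrected. Among 19 genes of NAD supply and ADP-ribose removal 7 were higher and 3 lower, and GC-corrected 5 and 0. MACROD1, a mono-ADP-ribose hydrolase, had 39.8 and 41.1 CPM with UPF1069 and 22.2 and 23.4 with veliparib (0.80, and 0.39 GC-corrected). PARG, which cuts the chains, was lower by 0.23 and did not pass GC-corrected.

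Repair genes gave calls in both directions, as did all genes tested (25.9% higher and 24.9% lower, and 21.9% and 17.5% GC-corrected). Of 33 homologous recombination and Fanconi genes 5 were higher and 10 lower (7 and 6 GC-corrected, and 3 higher without UPF1069 replicate 1). BRCA2 had 20.2 and 18.8 CPM in DMSO, 18.1 and 16.3 with UPF1069, and 30.4 and 26.7 with veliparib (-0.70, and -0.43 GC-corrected). RAD50, of the break-end complex, differed by -0.54 and XRCC3, a recombination factor, by 0.48 (0.20 GC-corrected). BRCA2 and RAD50 passed as above DMSO with veliparib (0.52 and 0.43) and did not pass against DMSO with UPF1069 (-0.17 and -0.11). Of 19 genes of base excision and single-strand break repair 7 were higher and 5 lower (5 and 6 GC-corrected), with the glycosylases NEIL1 at 0.71 and MPG at 0.61. GC-corrected, NEIL1 was at 0.47 and MPG at 0.25.

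Androgen-induced genes passed mostly as lower with UPF1069, by small differences. Of 40 androgen-induced genes 8 were higher and 19 lower with UPF1069, beside 25.9% and 24.9% of all genes, with a median of -0.09, and GC-corrected 11 and 14. KLK3, which encodes prostate-specific antigen, had 1429 and 1444 CPM in DMSO, 1264 and 1250.2 with UPF1069, and 1177 and 1282 with veliparib, so the compounds overlapped (0.03, 95% interval -0.05 to 0.11). HPGD, which breaks down prostaglandins, was the lowest of the list (-0.63). Of 12 androgen-repressed genes 6 were higher and 2 lower (8 and 1 GC-corrected), and the lower count was 1 without UPF1069 replicate 1 or veliparib replicate 1 and 4 without veliparib replicate 2. The highest was ACKR3, a chemokine scavenger (0.62). Of 11 luminal transcription factors 5 were higher and 5 lower (3 and 5 GC-corrected), and ELF3 stood out with 35.1 and 31.8 CPM with UPF1069 against 21.0 and 22.0 with veliparib (0.61).

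Chaperone genes were mostly lower with UPF1069. Of 14 heat shock genes 9 were lower and 2 higher, with a median of -0.22 (9 and 1 GC-corrected, and 1 higher without UPF1069 replicate 1). HSPE1, the mitochondrial co-chaperonin, had 109 and 117 CPM in DMSO, 115.7 and 115 with UPF1069, and 170.0 and 154 with veliparib (-0.49). The small heat shock gene HSPB1 went the other way, with 413 and 426 CPM in DMSO, 443 and 439 with UPF1069, and 306 and 292 with veliparib (0.56, and 0.25 GC-corrected). Both genes were near DMSO with UPF1069. Of 19 genes of the unfolded protein response 11 were lower and 1 higher (12 and 0 GC-corrected, and 0 higher without either UPF1069 replicate or veliparib replicate 1), with HSP90B1, the endoplasmic reticulum form of HSP90, at -0.42 and the chaperone HSPA5 at -0.28.

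The integrated stress response, which the factor ATF4 runs, gave 5 higher and 9 lower genes of 24, with a median of 0.00. GC-corrected, 3 were higher and 14 lower, with a median of -0.11. SLC7A11, the cystine transporter, had 184 and 188 CPM in DMSO, 115.6 and 115.9 with UPF1069, and 185 and 169 with veliparib (-0.61). DDIT4, an inhibitor of mTOR complex 1, had 164 and 158 CPM in DMSO, 156 and 156 with UPF1069, and 95.9 and 107 with veliparib (0.62). Thus UPF1069 was the compound off DMSO for the first and veliparib for the second. Of 20 aminoacyl-tRNA synthetases 13 were lower and 2 higher (11 and 0 GC-corrected, and 1 higher without either UPF1069 replicate or veliparib replicate 1), led by EPRS at -0.33. Of 30 proteasome subunits 17 were lower and 1 higher (18 and 2 GC-corrected), with PSMD14 at -0.39. The higher count was 2 without veliparib replicate 1 and 3 without veliparib replicate 2.

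Lipid and sugar metabolism differed by pathway. Of 23 cholesterol synthesis genes 11 were lower and 4 higher, and GC-corrected 15 and 2. Without UPF1069 replicate 1, 2 were higher. HMGCS1, the first committed enzyme of the pathway, had 151 and 147 CPM in DMSO, 118 and 118 with UPF1069, and 192 and 179.6 with veliparib (-0.65). The compounds lay on opposite sides of DMSO for HMGCS1. TM7SF2, a sterol reductase, differed by 0.77. Of 15 fatty acid synthesis genes 8 were lower and 1 higher (8 and 0 GC-corrected), with ACSL3 at -0.43. The lower count was 5 without UPF1069 replicate 1 and 4 without UPF1069 replicate 2, and the higher count 3 without veliparib replicate 2. Of 20 glycolytic genes 11 were higher and 2 lower (7 and 5 GC-corrected): the neuronal enolase ENO2 was at 0.48 and lactate dehydrogenase LDHA at -0.32. Without veliparib replicate 1, 5 glycolytic genes were lower. Of 19 hypoxia targets 8 were higher and 2 lower (10 and 1 GC-corrected), beside 25.9% and 24.9% of all genes. The lower count was 0 without UPF1069 replicate 1 and 1 without veliparib replicate 1, and without veliparib replicate 2 the counts were 5 higher and 4 lower. NDUFA4L2, an inhibitor of complex I, had 56.5 and 54.9 CPM in DMSO, 43.1 and 42.0 with UPF1069, and 21.6 and 21.7 with veliparib (0.94), so both compounds were below DMSO.

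Of 22 NRF2 targets 8 were higher and 5 lower (8 and 7 GC-corrected), beside 25.9% and 24.9% of all genes. The iron storage gene FTH1 was the highest. FTH1, the ferritin heavy chain, had 339 and 344 CPM in DMSO, 374 and 380.3 with UPF1069, and 198 and 211 with veliparib (0.88, and 0.89 GC-corrected). SRXN1, which repairs oxidised peroxiredoxins, followed at 0.69, with 15.4 and 15.5 CPM with UPF1069 and 9.86 and 8.60 with veliparib. The light chain FTL had 374 and 393 CPM in DMSO, 462 and 479.5 with UPF1069, and 301 and 317 with veliparib (0.61, and 0.51 GC-corrected). SLC7A11, also in this list, was its lowest member. Both ferritin chains were lowest with veliparib and highest with UPF1069, and both have many processed copies in the genome. Of 4 metallothioneins, which bind zinc and are near-identical, 3 were lower and 0 higher (4 and 0 GC-corrected), and 0 passed without UPF1069 replicate 1.

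Of 21 interferon-stimulated genes 9 were higher and 1 lower, with a median of 0.16 (9 and 0 GC-corrected). The lower call was lost without UPF1069 replicate 1, veliparib replicate 1 or either DMSO replicate. OASL was the highest at 0.60, and IFITM3 had 62.4 and 59.3 CPM with UPF1069 against 38.3 and 46.7 with veliparib (0.51). IFITM3 was at the DMSO level (62.0 and 58.0) with UPF1069. Of 7 NF-kB targets 2 were higher (RELB and NFKB2) and 1 lower (SOD2), and all 3 turned sign GC-corrected. The higher count was 1 without either UPF1069 replicate or veliparib replicate 1, and the lower count 0 without UPF1069 replicate 1. Beside APOBEC3H, the deaminase APOBEC3B was higher (0.57), the third measured APOBEC3 gene not. Of 6 ID and BMP feedback genes 4 were higher and 1 lower (3 and 1 GC-corrected), beside 25.9% and 24.9% of all genes. Of 8 epithelial-mesenchymal genes 2 were higher and 0 lower (4 and 0 GC-corrected, and 4 higher without veliparib replicate 2), with VIM, the filament vimentin, at 0.60 and under 5 CPM. Of the 2 measured aryl hydrocarbon receptor targets, 1 was higher (2 GC-corrected or without veliparib replicate 1, and 0 without either UPF1069 replicate).

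Large housekeeping groups had small medians. Of 78 cytosolic ribosomal protein genes 35 were higher and 5 lower, with a median of 0.06 (44, 10 and 0.10 GC-corrected). The lower count was 13 without veliparib replicate 1 and 11 without veliparib replicate 2. RPL26, the lowest at -0.41, had 330.0 and 346 CPM in DMSO, 366 and 354 with UPF1069, and 457 and 499 with veliparib. Of 75 nuclear subunits of oxidative phosphorylation 18 were higher and 26 lower, with a median of -0.03. Over all genes the shares were 25.9% and 24.9%, and 21.9% and 17.5% GC-corrected. GC-corrected the balance turned, to 21 higher and 15 lower, and without UPF1069 replicate 1 the lower count was 13. Of 43 chromatin remodelers and histone methylation genes 22 were lower and 3 higher (23 and 1 GC-corrected, and 7 higher without veliparib replicate 2), led by CHD1 at -0.49. Of 13 listed long non-coding RNAs 8 were lower and 2 higher (4 and 4 GC-corrected). NEAT1, the scaffold of paraspeckles, had 241 and 238 CPM in DMSO, 367 and 360.5 with UPF1069, and 259.8 and 248 with veliparib (0.52, and 0.74 GC-corrected). It was one of the 2 higher genes.

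**Figure D4:**
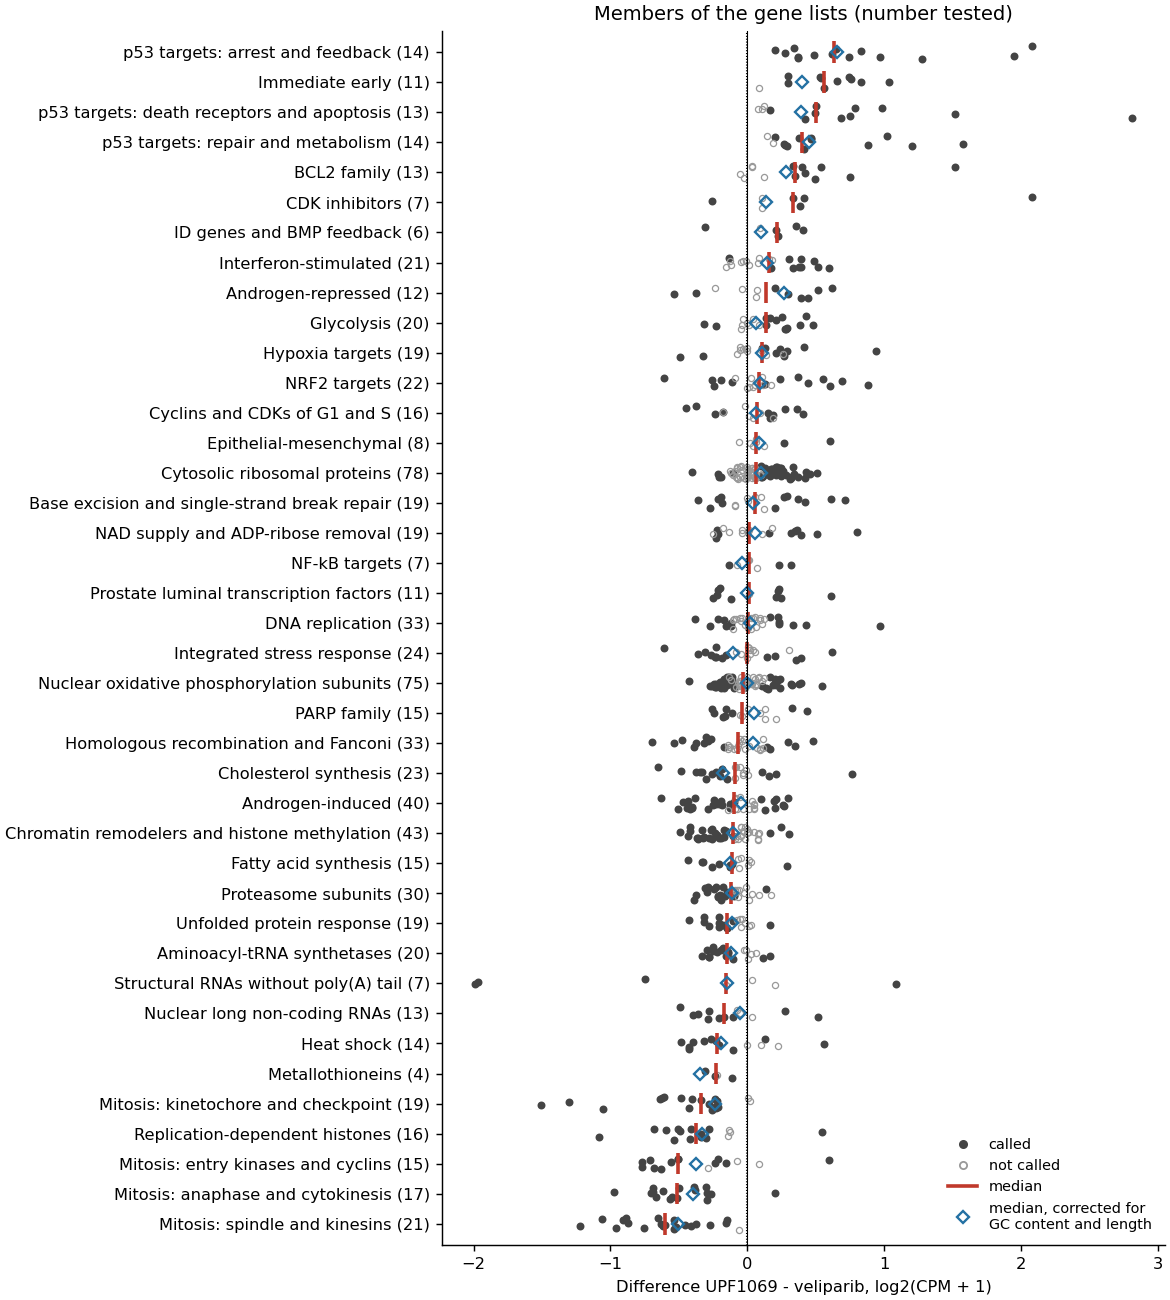
Difference UPF1069 minus veliparib of each tested member of the gene lists with at least 4 tested genes, on the log2(CPM + 1) scale; filled points passed, open points did not, red bars are medians and blue diamonds medians after correction for GC content and length. Lists are ordered by median and the dotted line is the median of all genes: the p53 lists stand near the top with medians of 0.63, 0.50 and 0.40, and the mitosis lists near the bottom with -0.34 to -0.60. The list of immediate early genes lies among the p53 lists at 0.56.

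Outside the lists, several of the largest differences were in genes with other roles. CEL, the bile salt-stimulated lipase, had 4.50 and 4.76 CPM in DMSO, 22.9 and 22.2 with UPF1069, and 4.68 and 4.94 with veliparib (2.02, SE 0.088, adjusted p = 1.79e-13 by limma). A pseudogene close to CEL shares its sequence, so its count is uncertain. SULF2, an extracellular heparan sulfate sulfatase, had 0.415 and 0.471 CPM in DMSO, 3.72 and 3.26 with UPF1069, and 0.607 and 0.491 with veliparib (1.53). The lipid hydroxylase gene FAXDC2 had 5.53 and 5.74 CPM in DMSO, 22.2 and 23.4 with UPF1069, and 7.90 and 7.40 with veliparib (1.46). In all 3 genes UPF1069 was far above both other groups. KANK3 (1.37), the somatostatin receptor SSTR5 (1.32), the cytokine LIF (1.24), the proline dehydrogenase PRODH (1.23) and the protein C receptor PROCR (1.21) followed. GC-corrected, KANK3 was at 0.83, SSTR5 at 0.89, LIF at 1.12, PRODH at 0.92 and PROCR at 1.18.

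PCSK1N, a granin-like inhibitor of prohormone convertase, shows the other kind of difference. It had 32.6 and 33.8 CPM in DMSO, 41.2 and 37.6 with UPF1069, and 16.3 and 15.5 with veliparib (1.25). Its transcript is 74.5% G or C, and GC-corrected the difference was 0.60. Most of its distance lay between DMSO and veliparib.

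In the lower direction, DHRS2, a short-chain dehydrogenase, had 19.5 and 19.9 CPM in DMSO, 6.49 and 5.67 with UPF1069, and 17.7 and 17.3 with veliparib (-1.39, SE 0.072). UPF1069 was the compound off DMSO, and the GC-corrected difference of -1.46 was as large. AKAP9, a Golgi and centrosome scaffold, had 50.7 and 47.5 CPM in DMSO, 47.2 and 45.8 with UPF1069, and 87.0 and 93.8 with veliparib (-0.94). Without correction for GC content, the veliparib libraries were thus the ones off DMSO. CADPS2, a factor for dense-core vesicle release, had 11.9 and 11.9 CPM with UPF1069 and 23.9 and 21.2 with veliparib (-0.87). SNHG25, a small nucleolar RNA host gene whose count may include that RNA, had 8.39 and 9.58 CPM with UPF1069 and 26.3 and 25.7 with veliparib (-1.44). The lowest of all tested features, named after its value was seen, carries the identifier ENSG00000265150 and no symbol, with 0.450 and 0.882 CPM in DMSO, 2.71 and 2.16 with UPF1069, and 26.7 and 27.2 with veliparib (-3.03). Without a symbol it could not be matched to any list, that of the structural RNAs included. The share of structural RNAs was also highest in the veliparib libraries, as given above, and whether this feature belongs with them was not tested.

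Some abundant genes were alike with both compounds within 0.25 on the log2 scale in the main fit. ENO1, a glycolytic enolase, had 2851 and 2839 CPM in DMSO, 2366 and 2332 with UPF1069, and 2318 and 2483 with veliparib (-0.03, 95% interval -0.11 to 0.05). The ATP synthase subunit ATP5B differed by -0.02 (-0.09 to 0.06), and the ribosomal protein RPS6 by 0.01 (-0.07 to 0.09). ENO1 was below DMSO with both compounds and RPS6 above it with both. GC-corrected, ENO1 was at -0.22 and passed, and so did RPS6 at 0.14, while ATP5B did not. FASN, named by the same rule, was at 0.01 in the main fit and at -0.30 GC-corrected, outside the bound of 0.25.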

How the data were processed

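The authors deposited CPM, with library sizes scaled by 0.991 to 1.009. Dividing by the step of each library gave whole reads for 100% of values above 0, within 0.01 of a read. In the submitters' processing notes stand hg19, edgeR 3.12.0, HTSeq 0.6.1, TopHat2 2.1.0 and bcl2fastq 2.18, with no roles. No coordinate of hg19 was used.

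The main test was limma 3.58.1 (trend, 2-sided) in R 4.3.3 on log2(CPM + 1), pseudocount 1. All 4 groups of the inhibitor table (8 libraries, the other group olaparib) shared 1 fit, with 4 residual and 17.6 prior degrees of freedom. Benjamini-Hochberg adjustment ran over 13337 genes, threshold 0.05. Alternatives were edgeR 4.0.16 and DESeq2 1.42.0 on the recovered reads, other pseudocounts, filters and scalings, group weights, a replicate block, the GC and length correction, and libraries left out. GC content and length came from GENCODE transcripts by identifier (98.04% of tested genes), and promoters from RefSeq. For 43 small RNA symbols on the identifier of another gene the reference symbol was used.

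Genes were named by a rule: the 15 highest and 15 lowest differences, the same without structural RNAs, histones and pseudogenes, all with libraries that do not overlap, the 4 largest of each list and 2 in its other direction, a fixed set that includes PARP1, PARP2, KLK3, CDKN1A, MDM2 and MKI67, abundant genes alike within 0.25, and genes with DMSO between the compounds. Groups, lists and rule were chosen with earlier results of these data known. The script was tested on simulated data. The list of mitochondrially encoded genes was not analysed here, and some genes that the rule names are not reported here. The labels do not say what separated the duplicates (cultures or days), so p-values measure only the spread between these libraries.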

Additional observations from a re-analysis of the deposited data

How the results depend on the processing

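Between 5173 and 7620 genes passed when 1 library at a time was left out, the first without UPF1069 replicate 1 and the second without veliparib replicate 2. The count at a difference of at least 2-fold was 48 on the log2(CPM + 1) scale, against 100 with DESeq2 and 108 and 107 with edgeR under TMM and RLE scaling. DESeq2 and edgeR took the recovered reads, without the pseudocount of 1. The count was 27 once GC content and length were corrected for, also with the replicate block. The replicate numbers did not pair the samples, since the correlations of replicate deviations ran from -0.0598 to 0.0297. With the number as a replicate block 6648 genes passed. The p53 and mitosis counts stayed within 1.5 times the main count under the 21 alternatives run: 34 to 37 of 41 p53 targets were higher and 58 to 63 of 72 mitotic genes lower when a library was left out. Of 232 named genes, 225 passed and 42 lost the call under some alternative. After correction for GC content and length, with or without the block, these named genes turned: IRF7 (-0.021), RELB (-0.053), SREBF1 (-0.046), NFKB2 (-0.046), FZR1 (-0.10), FARSA (-0.051), SDF2L1 (-0.18), GAPDH (-0.040), BAG3 (-0.0097), VARS (-0.16), RPL7A (-0.17), KLK3 (-0.076), FASN (-0.30) and SOD2 (0.10). The difference of RPS18 ran from -0.073 without veliparib replicate 1 to 0.114 without veliparib replicate 2. The cause was not tested.

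Without the olaparib libraries, an alternative chosen after seeing the data, 6498 genes passed. Depth limited low genes: at 3 reads a gene stood at about 0.1 CPM, where log2(CPM + 1) understates a fold change. It did so at a few CPM as well. SULF2 differed by 1.53 at a 6.35-fold ratio of mean CPM, and PLK3 by 0.97 at a 2.17-fold ratio.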
